A study of Mus musculus with 20 samples.

Results

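The 10 genes Evc2, Skint3, Sfrp1, Zfp334, Sult1a1, Chst2, Gkn3, Insrr, Erp27 and Sdc4 were followed across sorted mouse bone-marrow cells because their transcripts were abundant in long-term haematopoietic stem cells and scarce in MPP2 progenitors. They were 10 of 45706 genes in the expression matrix. They had been chosen from the measured LT-HSC and MPP2 values, in both genotypes or in knockouts, so the LT-HSC to MPP2 contrast is given as a description with no test. The groups were Hopx-knockout (KO) LT-HSC with 3 libraries, Hopx-wildtype (WT) LT-HSC with 4, KO MPP2 with 3, WT MPP2 with 3, KO MPP3 with 3 and WT MPP3 with 4. The mice were 8 weeks old and of C57BL/6 background in every group, and knockouts and wild types differed by the labelled Hopx genotype. The labels name no Cre driver or treatment, and they do not say how many animals gave each library. All 10 genes passed the filter on low counts. The MPP3 libraries had no part in the choice. There 9 of the 10 genes were lower in every library than in every LT-HSC library, and Sdc4 was the exception. Over all genes tested, 2.6% lay lower in every MPP3 library than in every LT-HSC library. The LT-HSC libraries did enter the choice, so this count too is a description with no test.

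As background, long-term haematopoietic stem cells renew themselves and sustain blood formation over the life of the animal. MPP2 and MPP3 are their short-lived multipotent offspring, MPP2 inclined toward platelets and red cells and MPP3 toward granulocytes and macrophages. The 10 genes belong to no single pathway. Sfrp1, Evc2 and Insrr act in Wnt, Hedgehog and receptor tyrosine kinase signalling, Sdc4, Skint3 and Chst2 make or modify the cell surface, Gkn3 is secreted, Sult1a1 and Erp27 work in the cytosol and the endoplasmic reticulum, and Zfp334 is a zinc-finger protein. They lie on 8 chromosomes.

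Libraries held 11163345 to 15189909 reads in genes. Values are counts divided by the library's size factor, called normalized counts here, and 1 read was worth 0.874 to 1.26 of them. Hopx, the targeted gene, was at 0 in all 9 KO libraries and was detected in 10 of 11 WT libraries. The library labelled WT LT-HSC replicate 4 had 0 Hopx reads, against its label, and WT LT-HSC means are therefore given with and without it. The MPP3 sort labels were checked on the surface-marker gene Slamf1, which averaged 1021 ± 257 in KO LT-HSC, 987 ± 171 in WT LT-HSC, 656 ± 250 in KO MPP2, 508 ± 99.3 in WT MPP2, 16.9 ± 16.3 in KO MPP3 and 12.96 ± 10.04 in WT MPP3 (SD, n = 3, 4, 3, 3, 3 and 4). Between LT-HSC and MPP2 limma called Slamf1 in neither genotype, so it does not check those labels against each other. Mature neutrophil genes, 8 in the list, summed to 56.2 to 25447 in KO LT-HSC, 104 to 17386 in WT LT-HSC, 121 to 976 in KO MPP2, 206 to 8033 in WT MPP2, 82.9 to 313 in KO MPP3 and 64.0 to 26404 in WT MPP3. The endothelial gene Cdh5 was at 0 in every KO LT-HSC library and at 0 to 0.916 in WT LT-HSC, the T-cell gene Cd3g was at 0 in all 20 libraries, and the bone gene Bglap was at 0 in all LT-HSC libraries. Other genes of these lists, of 8 genes each, did have reads in LT-HSC. The endothelial list summed to 1494 to 2237 in KO and 1410 to 2261 in WT LT-HSC. The T and NK list summed to 1528 to 2603 in KO and 1970 to 3340 in WT LT-HSC. The stroma and bone list summed to 1.09 to 79.1 in KO and 52.6 to 121 in WT LT-HSC. Whether such cells were present was not tested.

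The 7 members with a promoter in the RefSeq table differed widely in CpG content. The promoters printed here run from 250 bases before to 50 after the RefSeq transcription start (GRCm38.p6) and are shown for the 2 members with the fewest CpG dinucleotides, Sult1a1 and Skint3, and for Evc2 and Sdc4, a pair of CpG-rich starts whose genes stood at 0 to 1.82 and at 19.9 to 139 normalized counts in MPP3. Capitals mark matches on either strand to the E-box CANNTG, the GC box GGGCGG, the CCAAT box CCAAT or the ETS motif GGAAGT, and no matches overlapped in these windows. The Skint3 window is chr4:112231995-112232294 on the plus strand, that of Evc2 is chr5:37338228-37338527 on the plus strand, that of Sult1a1 is chr7:126676369-126676668 on the minus strand and that of Sdc4 is chr2:164443139-164443438 on the minus strand.
Skint3: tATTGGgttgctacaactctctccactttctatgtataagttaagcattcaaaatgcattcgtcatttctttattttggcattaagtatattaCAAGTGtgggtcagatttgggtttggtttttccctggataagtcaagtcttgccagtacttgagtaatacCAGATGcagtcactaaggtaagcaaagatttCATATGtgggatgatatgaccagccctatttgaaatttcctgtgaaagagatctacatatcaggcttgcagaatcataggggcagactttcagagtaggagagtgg
Evc2: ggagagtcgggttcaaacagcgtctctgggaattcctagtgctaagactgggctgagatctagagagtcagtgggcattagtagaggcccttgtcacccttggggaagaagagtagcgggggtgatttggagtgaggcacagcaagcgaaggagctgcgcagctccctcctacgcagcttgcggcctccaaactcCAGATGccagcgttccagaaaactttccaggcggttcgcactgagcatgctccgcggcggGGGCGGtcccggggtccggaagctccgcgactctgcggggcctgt
Sult1a1: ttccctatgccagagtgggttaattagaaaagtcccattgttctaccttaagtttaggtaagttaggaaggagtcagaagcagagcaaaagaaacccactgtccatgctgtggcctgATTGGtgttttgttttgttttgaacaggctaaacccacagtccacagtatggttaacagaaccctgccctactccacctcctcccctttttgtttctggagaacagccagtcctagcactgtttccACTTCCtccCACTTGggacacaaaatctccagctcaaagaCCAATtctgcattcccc
Sdc4: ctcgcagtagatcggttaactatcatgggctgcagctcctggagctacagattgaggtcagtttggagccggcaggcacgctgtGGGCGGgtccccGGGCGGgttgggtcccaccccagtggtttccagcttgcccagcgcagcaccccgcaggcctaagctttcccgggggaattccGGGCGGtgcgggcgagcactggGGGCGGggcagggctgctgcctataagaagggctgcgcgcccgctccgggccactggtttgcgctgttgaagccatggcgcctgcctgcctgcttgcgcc
Sult1a1 held 0 CpG in its 300 bases and Skint3 held 1, against a median of 7 over 32851 promoters. Evc2 held 19 and Sdc4 22, and the other members in the table held 5 (Gkn3), 16 (Zfp334) and 34 (Chst2). Members with near-empty progenitor libraries thus had promoters at both ends of the CpG range. An E-box was found in 5 of the 7 members with a promoter in the table and in 72.3% of all promoters. A GC box was found in 3 of 7 and in 35.7% of all promoters, and a CCAAT box in 2 of 7 and in 37.4%. The GATA motif AGATAA was found in Gkn3 alone among the 7 and in 11.2% of all promoters, and GGAAGT in Sult1a1 alone and in 23.8%. TGTGGT, a RUNX motif, and TATAAA, the TATA box, were found in 0 of 7 members and in 16.8% and 13.6% of all promoters.

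Sfrp1 encodes a secreted protein that binds Wnt ligands and limits their signalling (chromosome 8, 23411502 to 23449632, plus strand). It measured 64.3, 71.1 and 67.2 normalized counts in KO LT-HSC and 233, 57.0, 112 and 33.9 in WT LT-HSC. Every MPP2 library of both genotypes was at 0, as were all WT MPP3 libraries, and KO MPP3 measured 0, 0 and 2.73. The 3 KO LT-HSC libraries lay close together, while the WT LT-HSC libraries spread 6.86-fold and surrounded them. The mean was 67.5 ± 3.46 in KO LT-HSC (SD, n = 3) and 109 ± 88.8 in WT LT-HSC (SD, n = 4), or 134 ± 89.8 without WT LT-HSC replicate 4 (SD, n = 3). With 3 reads per group taken as the floor for the empty groups, Sfrp1 was at least 71.8-fold higher in KO LT-HSC than in KO MPP2, at least 107-fold higher in WT LT-HSC than in WT MPP2 and at least 143-fold higher in WT LT-HSC than in WT MPP3. These floors cover counting error only.

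Evc2 encodes a ciliary membrane protein that, with its partner Evc, promotes Hedgehog signalling downstream of Smoothened (chromosome 5, 37338499 to 37425055, plus strand). It measured 132, 103 and 217 in KO LT-HSC and 105, 231, 88.1 and 145 in WT LT-HSC. In the progenitors it measured 0 in all KO MPP2, 0, 0 and 1.18 in WT MPP2, 1.05, 0 and 1.82 in KO MPP3 and 0 in all WT MPP3 libraries. The gap was wide, with a lowest LT-HSC library at 88.1 and a highest progenitor library at 1.82. Means were 150.5 ± 59.3 in KO LT-HSC (SD, n = 3) and 142 ± 63.6 in WT LT-HSC (SD, n = 4), or 141 ± 77.9 without WT LT-HSC replicate 4 (SD, n = 3). LT-HSC held 99.5% of the summed group means, the highest share of the 10 genes. Its partner gene Evc starts 1605 bp away on the opposite strand and averaged 46.8 ± 46.8 in KO LT-HSC and 59.2 ± 69.5 in WT LT-HSC, with 0.645 ± 0.559 in KO MPP2, 3.53 ± 2.31 in WT MPP2, 6.30 ± 10.9 in KO MPP3 and 0 in WT MPP3 (SD, n = 3, 4, 3, 3, 3 and 4). Unlike Evc2, its lowest LT-HSC library, at 1.83, lay below its highest progenitor library, at 18.9.

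Insrr encodes a receptor tyrosine kinase of the insulin receptor family that responds to alkaline pH (chromosome 3, 87796951 to 87816101, plus strand). It measured 289.7, 139 and 45.4 in KO LT-HSC and 47.6, 80.7, 73.2 and 29.4 in WT LT-HSC. Values in MPP2 were 0.953, 0 and 0 in KO and 0, 5.004 and 14.2 in WT, and in MPP3 they were 2.099, 0 and 0 in KO and 0 in all WT libraries. The highest and lowest LT-HSC libraries were 9.84-fold apart, the widest spread of the 10 genes, and the KO and WT LT-HSC ranges overlapped. Means were 158 ± 123 in KO LT-HSC (SD, n = 3) and 57.7 ± 23.6 in WT LT-HSC (SD, n = 4), or 67.2 ± 17.3 without WT LT-HSC replicate 4 (SD, n = 3). The gene overlaps Pear1 on the opposite strand, and no source used here says whether counting used strand. Pear1 measured 1081 to 1344 over LT-HSC libraries and 292 to 1008 over progenitor libraries, where Insrr had 0 to 14.2. Whether Pear1 reads entered the Insrr counts was not tested.

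Sdc4 encodes syndecan-4, a membrane proteoglycan whose heparan sulfate chains bind growth factors and matrix (chromosome 2, 164424247 to 164443887, minus strand). It measured 227, 124 and 81.7 in KO LT-HSC and 46.7, 114, 104 and 56.2 in WT LT-HSC. In MPP2 it measured 0, 0.888 and 0 in KO and 0, 2.00 and 35.4 in WT, and in MPP3 19.9, 50.05 and 26.3 in KO and 58.5, 139, 57.0 and 44.2 in WT. The MPP3 libraries are what sets it apart, since WT MPP3 overlapped WT LT-HSC and its highest library exceeded all but 1 of the LT-HSC libraries. Means were 144 ± 74.5 in KO LT-HSC (SD, n = 3) and 80.2 ± 33.7 in WT LT-HSC (SD, n = 4), or 88.2 ± 36.3 without WT LT-HSC replicate 4 (SD, n = 3). They were 32.1 ± 15.9 in KO MPP3 (SD, n = 3) and 74.8 ± 43.6 in WT MPP3 (SD, n = 4). LT-HSC held 65.2% of the summed group means of Sdc4, against 88.9 to 99.5% for the other 9 genes. Sdc4 was therefore not nearly restricted to LT-HSC in these data; it was low in MPP2.

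Skint3 encodes a membrane protein of the butyrophilin-like Skint family, whose best known member, Skint1, selects a class of gamma-delta T cells in mouse skin (chromosome 4, 112232245 to 112300468, plus strand). It measured 67.5, 80.8 and 201 in KO LT-HSC and 168, 125, 90.2 and 129 in WT LT-HSC. All MPP2 libraries of both genotypes were at 0, KO MPP3 measured 0, 0 and 3.63, and WT MPP3 measured 4.03, 0, 0 and 0. The LT-HSC ranges of the genotypes overlapped and lay far above all progenitors. Means were 116 ± 73.3 in KO LT-HSC (SD, n = 3) and 128 ± 31.7 in WT LT-HSC (SD, n = 4), or 128 ± 38.8 without WT LT-HSC replicate 4 (SD, n = 3). The other 10 Skint genes of the list had too few reads for any to enter the test, and their group means ran from 0 to 2.54. How reads that match several Skint genes were counted is not stated in the sources used here, and its effect on Skint3 was not tested.

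Chst2 encodes an enzyme that adds sulfate to N-acetylglucosamine on cell-surface and secreted glycans (chromosome 9, 95399292 to 95406722, minus strand). It measured 157, 29.0 and 98.0 in KO LT-HSC and 42.1, 33.2, 73.2 and 17.0 in WT LT-HSC. All MPP2 libraries were at 0, KO MPP3 measured 2.099, 4.72 and 0.909, and WT MPP3 measured 0, 5.03, 0 and 0. The genotypes overlapped in LT-HSC, where the KO library at 29.0 lay below 3 of the 4 WT libraries. Means were 94.6 ± 64.0 in KO LT-HSC (SD, n = 3) and 41.4 ± 23.6 in WT LT-HSC (SD, n = 4), or 49.5 ± 20.99 without WT LT-HSC replicate 4 (SD, n = 3). Chst2 was at least 101-fold higher in KO LT-HSC than in KO MPP2 and at least 40.6-fold higher in WT LT-HSC than in WT MPP2. Over MPP3 the ratio of means was 36.7 in KO and 32.9 in WT.

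Gkn3 encodes a gastrokine, a small secreted protein of a family known from the stomach lining (chromosome 6, 87383256 to 87388935, minus strand). It measured 53.4, 73.8 and 122 in KO LT-HSC and 51.3, 88.3, 72.2 and 20.5 in WT LT-HSC. MPP2 measured 0, 0.888 and 0 in KO and 9.62, 0 and 0 in WT, and all 7 MPP3 libraries were at 0. It was the single member with no read in any MPP3 library, and 11 of its 12 MPP2 reads came from WT MPP2 replicate 1. Means were 82.9 ± 35.0 in KO LT-HSC (SD, n = 3) and 58.1 ± 29.3 in WT LT-HSC (SD, n = 4), or 70.6 ± 18.6 without WT LT-HSC replicate 4 (SD, n = 3). Gkn3 was at least 85.7-fold higher in KO LT-HSC than in KO MPP3 and at least 76.3-fold higher in WT LT-HSC than in WT MPP3. Its family members Gkn1 and Gkn2 were at 0 in all 20 libraries.

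Sult1a1 encodes a cytosolic sulfotransferase that conjugates phenols, including drugs and hormones (chromosome 7, 126672865 to 126676432, minus strand). It measured 1051, 531 and 480.1 in KO LT-HSC and 1616, 604, 1282 and 1869 in WT LT-HSC. MPP2 measured 0.953, 19.5 and 0 in KO and 7.87, 0 and 12.99 in WT, and MPP3 measured 30.4, 19.8 and 44.5 in KO and 19.2, 60.3, 97.1 and 69.4 in WT. It was detected in every MPP3 library, as were Erp27 and Sdc4, and the genotypes' LT-HSC ranges overlapped between 604 and 1051. Means were 688 ± 316 in KO LT-HSC (SD, n = 3) and 1343 ± 548 in WT LT-HSC (SD, n = 4), or 1167 ± 516 without WT LT-HSC replicate 4 (SD, n = 3). The ratio of means was 101 for KO LT-HSC over KO MPP2, 193 for WT LT-HSC over WT MPP2, 21.8 for KO LT-HSC over KO MPP3 and 21.8 for WT LT-HSC over WT MPP3. Sult1a1 overlaps Sgf29 on the opposite strand. Sgf29 measured 1344 to 2142 over LT-HSC libraries and 1063 to 1652 over progenitor libraries, where Sult1a1 had 0 to 97.1. Whether Sgf29 reads entered the Sult1a1 counts was not tested.

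Erp27 encodes an endoplasmic reticulum protein of the disulfide isomerase family that lacks catalytic cysteines (chromosome 6, 136907311 to 136922180, minus strand). It measured 281, 89.6 and 285 in KO LT-HSC and 249, 352, 211 and 234 in WT LT-HSC. MPP2 measured 0, 10.7 and 0 in KO and 50.7, 22.0 and 35.4 in WT, and MPP3 measured 11.5, 3.78 and 18.2 in KO and 3.03, 21.4, 3.56 and 9.92 in WT. In MPP2 every KO library lay below every WT library, which held for no other member in any population. Over all genes tested, 3.85% lay lower in KO MPP2 than in WT MPP2 without overlap. MPP2 values in knockouts entered the choice of members, so this is a description with no test. Means were 219 ± 112 in KO LT-HSC (SD, n = 3) and 262 ± 62.4 in WT LT-HSC (SD, n = 4), or 271 ± 73.0 without WT LT-HSC replicate 4 (SD, n = 3). They were 3.55 ± 6.15 in KO MPP2 and 36.1 ± 14.4 in WT MPP2 (SD, n = 3 each). Of the flanking genes, Art4 likewise lay higher in LT-HSC, at 614 to 1504 against at most 362 in progenitors, whereas Arhgdib, 1475 bp away, measured 9617 to 18511 in LT-HSC and 8735 to 27040 in progenitors.

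Zfp334 encodes a zinc-finger protein of the KRAB class, whose members repress transcription through Trim28 (chromosome 2, 165374264 to 165388259, minus strand). It measured 79.5, 79.9 and 19.1 in KO LT-HSC and 54.0, 19.9, 72.2 and 49.97 in WT LT-HSC. All MPP2 and all KO MPP3 libraries were at 0, and WT MPP3 measured 0, 1.26, 0 and 2.71. The lowest LT-HSC libraries were 1 of each genotype, at 19.1 in KO and 19.9 in WT, and both lay above every progenitor library. Means were 59.5 ± 35.0 in KO LT-HSC (SD, n = 3) and 49.0 ± 21.7 in WT LT-HSC (SD, n = 4), or 48.7 ± 26.5 without WT LT-HSC replicate 4 (SD, n = 3). Zfp334 was at least 63.2-fold higher in KO LT-HSC than in KO MPP2 and at least 48.1-fold higher in WT LT-HSC than in WT MPP2.

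**Figure D1:**
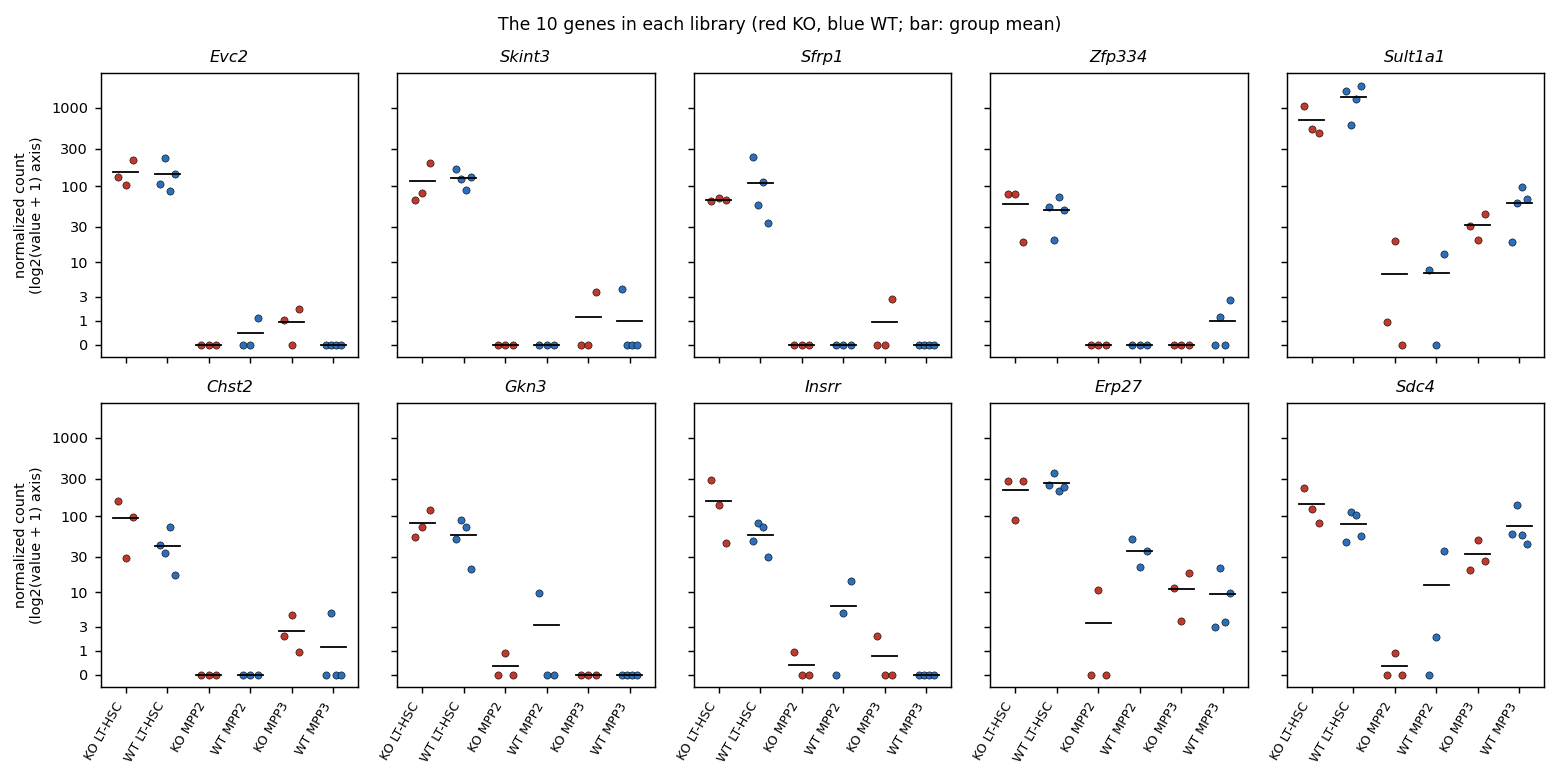
Normalized counts of the 10 genes in each library on a log2(value + 1) axis, by group, with a bar at the group mean. LT-HSC libraries lie above all MPP2 libraries for all 10 genes, and above all MPP3 libraries for every gene but Sdc4, whose WT MPP3 libraries reach 139.

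All 10 genes lay higher in all 7 LT-HSC libraries than in all 6 MPP2 libraries, against 1.77% of the 17160 genes tested; the choice of members fixed this count, and nothing is read from it. Of the 10, 9 lay higher in every LT-HSC library than in all 7 MPP3 libraries, against 2.6% of genes tested. The LT-HSC side of that count was also used in the choice. In bulk libraries such as these, fewer cells of a type and less RNA per cell cannot be told apart. The genes Skint3, Sfrp1, Zfp334 and Chst2, 4 in all, had 0 reads in all 6 MPP2 libraries and 3 to 12 reads over the 7 MPP3 libraries. Sult1a1, Erp27 and Sdc4 had 43, 122 and 33 reads in MPP2 and 352, 70 and 383 in MPP3. In the order of group means, an LT-HSC group came first and the other LT-HSC group second for all 10 genes, and the 2 overlapped for all 10. The second and the third group were separate for 9 genes and overlapped for Sdc4. Among the progenitors neighbouring groups overlapped for all 10 genes except that KO MPP3 lay above WT MPP2 for Sult1a1 and WT MPP2 lay above KO MPP3 for Erp27.

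Per kilobase of exon, the scale on which genes can be set beside each other, Sult1a1 had the highest LT-HSC level, with a mean of 456 normalized counts per kb in KO and 891 in WT. Gkn3 followed in KO, with 96.9 in KO and 67.8 in WT, and Erp27 had 73.3 in KO and 87.8 in WT. Sdc4 had 56.5 in KO and 31.5 in WT, Skint3 had 30.3 in KO and 33.3 in WT, and Insrr had 27.6 in KO and 10.1 in WT. Evc2 had 25.8 in KO and 24.4 in WT, and Sfrp1 had 15.4 in KO and 24.9 in WT. The lowest were Chst2, with 12.9 in KO and 5.65 in WT, and Zfp334, with 7.25 in KO and 5.98 in WT. The most abundant member was thus more than an order of magnitude above the scarcest in either genotype.

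On the log2(value + 1) scale, which understates the change of low genes, the limma difference of mean KO LT-HSC minus KO MPP2 ranged from 5.67 (Zfp334, SE 0.78) to 7.56 (Sult1a1, SE 1.04), with a median of 6.52 over the members and 0.13 over all genes tested. WT LT-HSC minus WT MPP2 ranged from 2.87 (Erp27, SE 0.87) to 7.96 (Sult1a1, SE 0.97), with a median of 5.37 over the members and 0.07 over all genes. The rule used these contrasts, so the sizes are given with no test and nothing is read from them. They depend on the scale, with medians of 3.02 in KO and 2.19 in WT at a pseudocount of 16, and of 8.72 in KO and 7.92 in WT in edgeR on 20 libraries.

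Against MPP3 the difference of KO LT-HSC minus KO MPP3 ranged from 2.11 (Sdc4, SE 0.98) to 6.405 (Insrr, SE 0.94), with a median of 5.57 over the members and -0.03 over all genes. WT LT-HSC minus WT MPP3 ranged from 0.15 (Sdc4, SE 0.85) to 7.06 (Evc2, SE 0.59), with a median of 5.34 over the members and 0.03 over all genes. These contrasts share their LT-HSC libraries with the choice of members, so they too are a description with no test. Sult1a1, Chst2 and Erp27 had smaller differences from MPP3, 4.21 to 4.98 over both genotypes, than Evc2, Skint3, Gkn3 and Insrr, at 5.70 to 7.06. Zfp334 was at 5.67 in KO and 4.74 in WT, and Sfrp1 at 5.46 in KO and 6.42 in WT, so the members did not split cleanly. For WT LT-HSC minus WT MPP3, leaving out WT LT-HSC replicate 4 gave 6.85 for Sfrp1, against 6.42 with it, and 0.28 for Sdc4, against 0.15 with it.

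**Figure D2:**
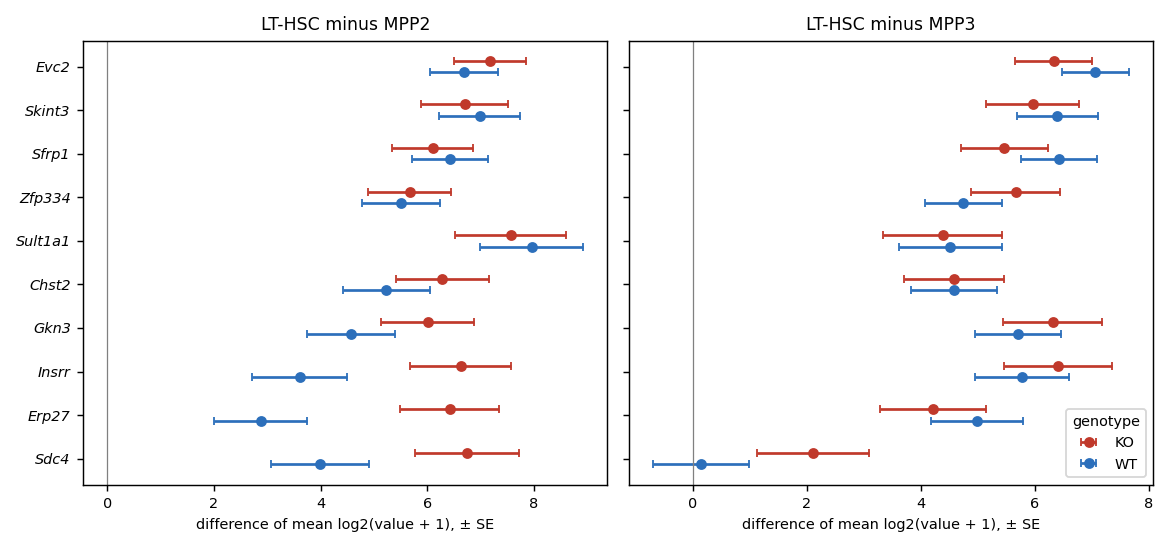
Difference of mean log2(value + 1) with its limma standard error for each gene, LT-HSC minus MPP2 on the left and LT-HSC minus MPP3 on the right, KO above WT. All differences from MPP2 are positive, from 2.87 to 7.96, and Sdc4 stands apart in MPP3 with 2.11 in KO and 0.15 in WT.

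The comparison of KO with WT MPP3 is the one whose libraries had no part in the choice. It asks whether loss of Hopx changed the little transcript left in these progenitors. Its standard errors and p-values are not free of the choice, since limma pooled each gene's spread over all 6 groups, LT-HSC and MPP2 included. Of the 10 genes, 0 passed limma's test, and 0.00583% of all genes did, 1 of 17160. Of all genes tested, 347 had an unadjusted p under 0.05 in limma, and edgeR called 0. Of the members, 7 had at most 12 reads over the 7 MPP3 libraries, too few to compare at this depth, and they had passed the filter through LT-HSC alone. Those with more reads were Sult1a1, Erp27 and Sdc4. Sult1a1 averaged 31.6 ± 12.4 in KO MPP3 (SD, n = 3) and 61.5 ± 32.3 in WT MPP3 (SD, n = 4), a log2 difference of -0.80 (SE 0.97, limma adjusted p = 1). Sdc4 had a log2 difference of -1.15 (SE 0.91, limma adjusted p = 1), with 1 KO library at 50.05 above 1 WT library at 44.2. Erp27 averaged 11.2 ± 7.20 in KO MPP3 (SD, n = 3) and 9.47 ± 8.52 in WT MPP3 (SD, n = 4), a log2 difference of 0.36 (SE 0.87, limma adjusted p = 1) whose sign changed in 2 of the alternatives tried. The ranges of KO and WT MPP3 overlapped for all of Sult1a1, Sdc4 and Erp27, where 3.93% of genes tested did not overlap. A p that misses the threshold does not show that the levels were equal.

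In LT-HSC the KO and WT ranges overlapped for all 10 genes, where 5% of genes did not overlap. The KO minus WT difference in LT-HSC ran from -0.94 (Sult1a1, SE 0.97) to 1.17 (Insrr, SE 0.88), with 6 positive and 4 negative and a median of 0.13, beside -0.03 over all genes. Without WT LT-HSC replicate 4, the library at 0 Hopx, it ran from -0.75 (Sfrp1, against -0.32 with it) to 0.89 (Insrr), and that of Gkn3 was 0.18, against 0.61 with it. Without KO LT-HSC replicate 1, Insrr differed by 0.56. In MPP2, Erp27 was lower in every KO library than in every WT library, with a difference of -3.95 (SE 0.93), and 3.85% of all genes were lower without overlap in this comparison. The Erp27 difference was -1.42 with a pseudocount of 16 and -5.13 without KO MPP2 replicate 2. The other 9 overlapped, and 4 of these had no read in either genotype. Since LT-HSC and MPP2 values chose the members, these differences carry no test.

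Among the LT-HSC libraries, the members did not share an order. KO LT-HSC replicate 1 was the highest library for Chst2, Insrr and Sdc4, and KO LT-HSC replicate 3 for Skint3 and Gkn3. The library labelled WT LT-HSC replicate 4 was the lowest for Sfrp1, Chst2, Gkn3 and Insrr and the highest for Sult1a1. The fold between the highest and the lowest LT-HSC library ran from 2.62 for Evc2 to 9.84 for Insrr. The library numbers in the labels fall into 4 ranges, which may or may not be processing batches. All LT-HSC libraries lay above all MPP2 libraries for all 10 genes, and above all MPP3 libraries for 9. The same order within each range (52 to 54, 81 to 88, 101 to 106 and 115 to 120) follows from that. It is therefore no separate check on the ranges. For Sdc4, every LT-HSC library exceeded every MPP3 library in the ranges 101 to 106 and 115 to 120. This did not hold in the ranges 52 to 54 and 81 to 88, which have 1 LT-HSC library each.

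Over the 20 libraries, Pearson correlations of log2(value + 1) between members ran from 0.438 for Sdc4 with Gkn3 to 0.976 for Skint3 with Evc2. They are given as a description, since the points share libraries and the members were chosen for the LT-HSC step that dominates them. Sult1a1 was the gene closest to Sdc4, at 0.792. Outside the members, 9 genes are given here whose pattern was among those most like the members' mean, in the order Slc17a8, Coq8a, Map1b, Ocln, Runx1t1, Hid1, Cpne8, Glipr1l1 and Unc45b, with correlations of 0.942 down to 0.894 over 20 libraries. Slc17a8 averaged 123 ± 72.7 in KO LT-HSC and 108 ± 95.2 in WT LT-HSC, with 0 in all MPP2 libraries, 2.42 ± 4.196 in KO MPP3 and 5.34 ± 10.7 in WT MPP3 (SD, n = 3, 4, 3 and 4). Coq8a had a pattern of the same order and far less contrast, at 1844 ± 279 in KO LT-HSC and 1619 ± 212 in WT LT-HSC (SD, n = 3 and 4), against group means of 489 to 658 in progenitors. Map1b was the gene most like Evc2, Skint3, Sfrp1 and Zfp334 each, at correlations of 0.937 to 0.9502. Procr, a stem-cell surface receptor, was the gene most like Sdc4, at 0.933. It averaged 602 ± 387 in KO LT-HSC and 951 ± 272 in WT LT-HSC, with 3.26 ± 5.64 in KO MPP2, 60.6 ± 105 in WT MPP2, 242 ± 57.7 in KO MPP3 and 191 ± 91.3 in WT MPP3 (SD, n = 3, 4, 3, 3, 3 and 4), so that it too was scarcer in MPP2 than in MPP3. For the other members the most like gene was Kazald1 for Sult1a1, Slc17a8 for Chst2, Glipr1l1 for Gkn3, Ocln for Insrr and Jam3 for Erp27.

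**Figure D3:**
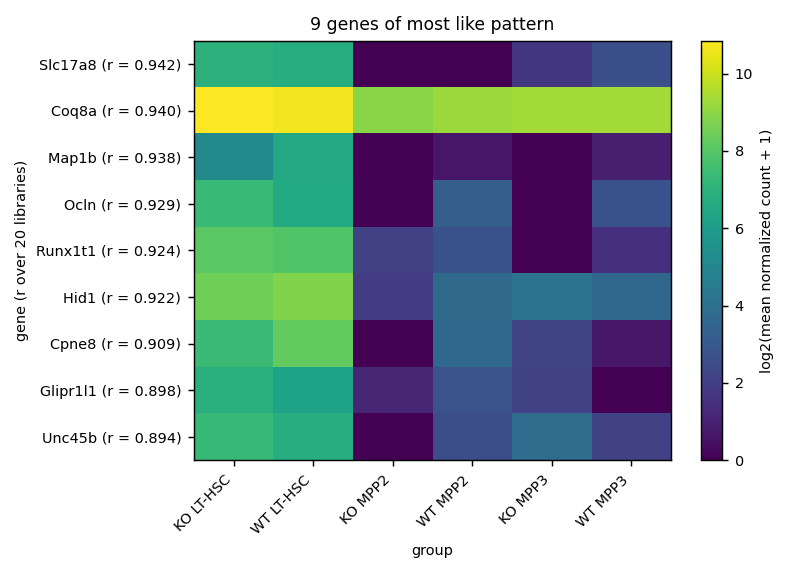
Group means, as log2(mean normalized count + 1), of 9 genes outside the members whose pattern over 20 libraries is among those most like the members' mean, with the correlation r beside each name. All but Coq8a are low in the 4 progenitor groups, where Coq8a keeps group means of 489 to 658.

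The relatives of the members were then read from 10 lists of pathways and families, and few of them were called. Of 13 Wnt receptors, inhibitors and targets tested besides Sfrp1, 1 was called in 1 contrast. Fzd9, a Wnt receptor, averaged 77.7 ± 49.1 in KO LT-HSC, 61.5 ± 39.3 in WT LT-HSC, 5.33 ± 9.23 in KO MPP2 and 0 in WT MPP2 (SD, n = 3, 4, 3 and 3). It was higher in WT LT-HSC than in WT MPP2, by 5.69 on the log2 scale (SE 1.17, limma adjusted p = 0.028, where 0.554% of genes were called higher). The LT-HSC minus MPP3 differences of Fzd9 were smaller, at 2.56 in KO (SE 1.25) and 1.27 in WT (SE 1.08). Neither was called, and in WT the ranges overlapped. Leaving out a library cost Fzd9 the call in 6 of 20 cases, each WT LT-HSC library and WT MPP2 replicates 1 and 2, with adjusted p up to 0.0921 in limma. A pseudocount of 16 and edgeR on 20 or 18 libraries did not call it either. Of the other secreted Sfrp genes, Sfrp2, Frzb and Sfrp5 had group means of 0 to 7.19, and Sfrp4 was at 0 in all LT-HSC libraries, with means of 96.1 in KO MPP2 and 16.3 in WT MPP2.

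Of 8 Hedgehog and EvC complex genes tested besides Evc2, Evc was higher in WT LT-HSC than in WT MPP3, by 4.76 (SE 1.18, limma adjusted p = 0.0269, where 2.47% of genes were called higher), and was called in no other contrast. Evc lost the call in 7 of 20 leave-outs, those of WT LT-HSC replicates 2, 3 and 4 and of each WT MPP3 library, with adjusted p up to 0.11 in limma. It also lost the call without the libraries numbered 52 to 54, with a pseudocount of 16 and in edgeR on 18 libraries. The receptor gene Ptch1 averaged 138 ± 58.0 in KO LT-HSC, 266 ± 60.1 in WT LT-HSC, 224 ± 64.3 in KO MPP2, 304 ± 49.8 in WT MPP2, 142 ± 52.5 in KO MPP3 and 175 ± 74.7 in WT MPP3 (SD, n = 3, 4, 3, 3, 3 and 4), and was called in no contrast. The target gene Gli1 had group means of 27.0 and 34.5 in KO and WT LT-HSC and 39.0 to 69.0 in progenitors, and was not called either.

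Among 15 syndecan and heparan sulfate genes tested besides Sdc4, the syndecan Sdc2 was called, higher in WT LT-HSC than in WT MPP3 by 6.51 on the log2 scale (SE 1.02, limma adjusted p = 0.000952). It averaged 548 ± 154 in KO LT-HSC, 387 ± 152 in WT LT-HSC, 288 ± 315 in KO MPP2, 125 ± 51.1 in WT MPP2, 119 ± 108 in KO MPP3 and 14.4 ± 26.5 in WT MPP3 (SD, n = 3, 4, 3, 3, 3 and 4). Sdc2 and Sdc4 thus differed in where they were low, Sdc4 in MPP2 and Sdc2 in WT MPP3. Sdc2 kept its call in all 20 leave-outs, and lost it in edgeR on 18 libraries at an adjusted p of 0.0966. The remaining syndecans, Sdc1 and Sdc3, averaged 28.4 and 68.9 in KO LT-HSC and 29.5 and 19.95 in WT LT-HSC, and neither was called in any of the 7 contrasts.

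In the 5 other lists with tested genes, 0 of 36 genes besides the members were called in any of the 7 contrasts by limma, and 0 by edgeR. Of their 252 pairs of gene and contrast, 16 had an unadjusted p under 0.05 in limma. The lists comprised 13 carbohydrate sulfotransferase and sulfate supply genes, 1 cytosolic sulfotransferase, 6 insulin receptor family and substrate genes, 11 protein disulfide isomerases and 5 partners of KRAB repression. The list medians of KO LT-HSC minus KO MPP2 were 0.31, 2.07, 1.06, -0.07 and -0.23 in that order, beside 0.13 over all genes, and the second rests on 1 gene, Sult2b1. Insr and Igf1r, the family members of Insrr, averaged 469 and 126 in KO LT-HSC, 721 and 183 in WT LT-HSC and 539 and 129 in WT MPP3. Pdia3, the isomerase that Erp27 binds, had group means of 12122 to 13867 over the 6 groups, and Trim28 had 3159 to 4429. The Papss1 and Slc35b2 genes, which make and carry the sulfate donor, had LT-HSC means of 981 to 1569.6.

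**Figure D4:**
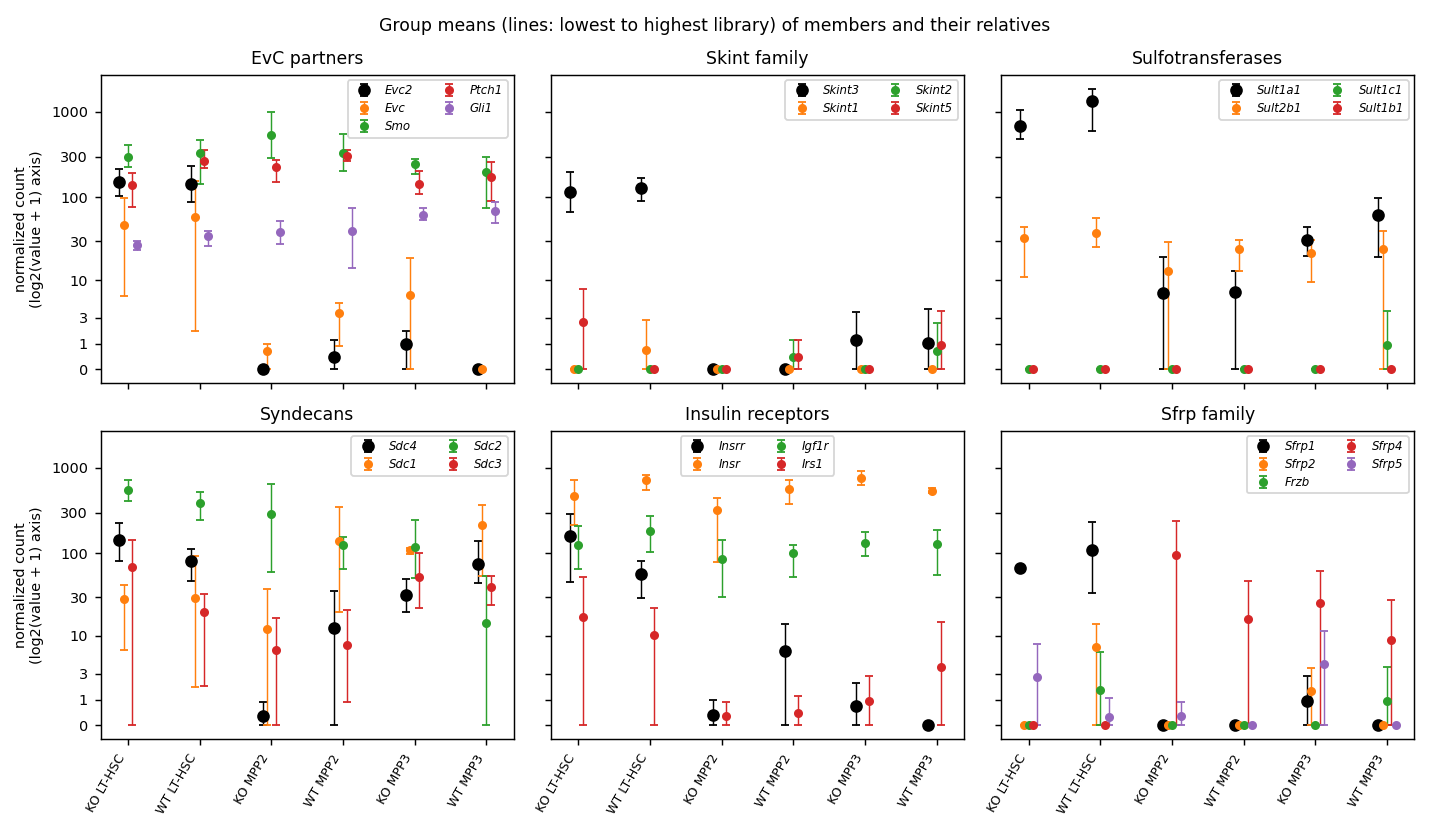
Normalized counts of 6 members (black) and their relatives on a log2(value + 1) axis by group, with points at the group mean and lines from the lowest to the highest library. Evc2, Skint3, Insrr and Sfrp1 lie near 0 in the progenitor groups, while Smo, Ptch1, Insr and Igf1r keep group means of 85.8 or more in all 6 groups.

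Known stem-cell genes were read in the contrasts of LT-HSC with progenitors. Of 18 such markers, limma called 4 higher in KO LT-HSC than in KO MPP2, where 1.08% of all genes were, and 5 in WT LT-HSC than in WT MPP2, where 0.554% were. It called 9 higher in KO LT-HSC than in KO MPP3, where 0.997% of genes were, and 12 in WT LT-HSC than in WT MPP3, where 2.47% were. None of the 18 was called lower in these 4 contrasts by limma. In edgeR 0 of the 4 (adjusted p of 0.0882 to 0.0892), 1 of the 5, 8 of the 9 and 11 of the 12 calls were made too. Their median differences were 2.46, 2.24, 2.43 and 2.88 in the same order. Esam, a junction protein, was called by limma in all 4, by 2.08 to 3.24 on the log2 scale, and by edgeR against MPP3 alone. Slamf1 was called against MPP3 in both genotypes by both tools and against MPP2 in neither genotype. The members' own medians ran from 5.34 to 6.52, and since LT-HSC values that chose the members enter all 4 contrasts, the 2 sets are not compared. The members' differences from MPP2 stayed positive in all 270 refits in each genotype, those that left out each library among them. The choice of members fixed that sign, and nothing is read from it.

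Some markers of other cell types differed between LT-HSC and progenitors, in either direction. Of 7 megakaryocyte and platelet genes tested, 4 were called higher in LT-HSC than in MPP3 in each genotype by limma and by edgeR, where limma called 0.997% of all genes higher in KO and 2.47% in WT. The 8 listed genes summed to 8717 to 36368 in KO LT-HSC, 3345 to 22752 in WT LT-HSC, 12402 to 72173 in KO MPP2, 3269 to 46001 in WT MPP2, 761 to 1030 in KO MPP3 and 457 to 2052 in WT MPP3. The highest sums were in MPP2 libraries, where the 10 members measured 0 to 50.7. Of 4 T and NK genes tested, Nkg7, a gene of cytotoxic cells, was called lower in LT-HSC by limma in all 4 contrasts with progenitors, where 0.117% of genes were called lower against MPP2 in KO and 0.28% in WT, and 0.909% against MPP3 in KO and 1.5% in WT. In edgeR the call against KO MPP2 was lost, at an adjusted p of 0.0582. The list's median difference ran the other way against MPP2, at 0.60 in KO and 1.62 in WT, and its natural killer gene Klrb1c averaged 51.2 in KO LT-HSC, 59.2 in WT LT-HSC, 10.4 in KO MPP2 and 0.291 in WT MPP2. Nkg7 alone averaged 1987 in KO LT-HSC, 2458 in WT LT-HSC and 6819 to 8875 over the progenitor groups, so it makes up most of the list's sum. The 8 T and NK genes summed to 1528 to 2603 in KO LT-HSC, 1970 to 3340 in WT LT-HSC and 3885 to 11075 over the progenitor groups. Among 6 endothelial genes tested, limma called Tek higher in LT-HSC than in MPP3 in both genotypes, and Kdr higher and Pecam1 lower in WT. Cdh5, which had too few reads to enter the test, was at or near 0 in LT-HSC. Whether endothelial cells were present was not tested. The stromal gene Pdgfrb was called lower in LT-HSC than in MPP3 in both genotypes by limma. In edgeR the calls of Tek in KO (adjusted p = 0.0543), Kdr in WT (adjusted p = 0.0611) and Pdgfrb in KO (adjusted p = 0.145) were lost, while those of Tek, Pecam1 and Pdgfrb in WT were kept. In the neutrophil, erythroid, macrophage and B-cell lists, 0 of 29 genes were called in any of the 7 contrasts by limma or by edgeR, and 12 of 203 pairs of gene and contrast had an unadjusted p under 0.05 in limma. Neutrophil genes differed widely between LT-HSC libraries, as given at the outset. The 8 erythroid genes summed to 1110 to 24515.5 in KO LT-HSC and 1150 to 4809 in WT LT-HSC. The 8 B-cell genes summed to 574 to 4246 in KO LT-HSC and 769 to 908 in WT LT-HSC. For the 8 macrophage genes the sums were 368 to 885 in KO LT-HSC and 256 to 456 in WT LT-HSC. The part of these 4 lists in the members' levels was not tested.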

How the data were processed

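RNA was sequenced from sorted mouse bone-marrow populations, with Nextera XT libraries per the labels' protocols. The submitters' processing notes name TopHat2 2.1.1 for alignment, the build GRCm38, HTSeq 0.11.2 for counting and DESeq, with no version, for scaling. What the authors deposited is a signal per gene and library, the read count over that library's size factor. The sources used here do not give the strand setting, the annotation release or any filtering step. All values (100%) were whole multiples of what 1 read is worth, to within 1e-06, so reads could be recovered. The 5 HTSeq summary entries were left out. They show 18.5 to 21.4% of entries per library in genes and 52.6 to 57.8% not unique.

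Symbols and exon lengths were taken from GENCODE M21 (GRCm38), which matched 45143 of 45706 identifiers, and promoters from RefSeq (GRCm38.p6), which held 7 of the 10 members. limma 3.58.1 (R 4.3.3), with trend and robust variances, was fitted to log2(value + 1) of the deposited signal with 6 group means over 20 libraries. It covered 17160 genes kept by edgeR 4.0.16's expression filter, with Benjamini-Hochberg adjustment over all of them and calls at an adjusted p under 0.05. The edgeR quasi-likelihood test on the recovered reads was an alternative, also on 18 libraries, since a read is worth too nearly 1 for an automatic check in replicate 1 of WT MPP3 and replicate 2 of WT MPP2. Both tests were checked on simulated data. Floors are 3 counts over a group.

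Replicate numbers follow accession order, and the labels name no animals, so p-values measure the spread between libraries, which may be technical. The members, lists and rules were chosen with earlier results of these data known. All 10 members were named, with relatives past the threshold, paralogues by level and the 10 genes with a mean of at least 20 normalized counts whose pattern correlated best with the members' mean, 1 of which is not reported here. Genes named in the cell-type and stem-cell lists followed their calls or their use as defining markers.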

Additional observations from a re-analysis of the deposited data

Results flagged for a closer look

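Of 20 groups of 4 libraries checked among the 10 genes, 3 held a library far from the others, all in WT MPP3. Chance marks about 1 group in 20 where values are continuous, a rate that does not hold for groups made up largely of zeros. A group with reads in 1 of its 4 libraries is always marked, as for Chst2 and Skint3 here, and a group of zeros never is. Sdc4 measured 139 in WT MPP3 replicate 2, against 44.2 to 58.5 in the other WT MPP3 libraries. Without that library the KO minus WT difference of Sdc4 in MPP3 was -0.81 on the log2 scale, against -1.15 with it, and neither passed limma's test. Chst2 measured 5.03 in WT MPP3 replicate 2 and 0 in the other WT MPP3 libraries. Skint3 measured 4.03 in WT MPP3 replicate 1 and 0 in the other WT MPP3 libraries. These last values stand for 4 reads each.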

How the results depend on the processing

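The members' log2 differences were refitted with each of 20 libraries left out and under 7 other settings. LT-HSC minus MPP2 stayed positive in 270 of 270 refits in KO and in WT, a sign that the choice of members fixed. KO LT-HSC minus KO MPP3 stayed positive in 270 of 270 as well. WT LT-HSC minus WT MPP3 did so in 267 of 270, with Sdc4 reaching -0.05. The LT-HSC libraries of these contrasts also entered the choice. The sizes moved more, from 2.098 to 10.29 in KO LT-HSC minus KO MPP2 and from 1.71 to 10.05 in WT LT-HSC minus WT MPP2, with the lowest at a pseudocount of 16 and the highest in edgeR on 18 libraries. Erp27 in KO minus WT MPP3 turned to -0.026 with edgeR on 18 libraries, and ran from -0.0803 (without KO MPP3 replicate 3) to 0.922 (without KO MPP3 replicate 2) with a library left out. Sult1a1 then ran from -1.28 to -0.52 and Sdc4 from -1.52 to -0.81.

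Numbers of genes called depended more on the setting, and the cause was not tested. KO minus WT MPP3 called 1 gene, but 3 with no filter and 0 with a pseudocount of 16, the library-number range as covariate, edgeR on 20 or 18 libraries or without the libraries numbered 52 to 54. KO minus WT LT-HSC called 1, but 2 with a pseudocount of 16, 3 with no filter and 0 with edgeR on 20 or 18 libraries or without libraries 52 to 54. KO minus WT MPP2 called 2 genes and 0 under all 7 other settings, which include TMM scaling. KO LT-HSC minus KO MPP2 called 206, against 131 with no filter, 363 with the covariate, 310 without libraries 52 to 54, and 5 and 17 with edgeR on 20 and 18 libraries. WT LT-HSC minus WT MPP2 called 143, against 266 with a pseudocount of 16, 364 with the covariate, and 35 and 0 with edgeR on 20 and 18 libraries. KO LT-HSC minus KO MPP3 called 327, against 190 and 168 with edgeR on 20 and 18 libraries. WT LT-HSC minus WT MPP3 called 681, against 429 and 236 with edgeR.

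With 1 library left out, KO minus WT called 0 to 2 genes in MPP3, 0 to 2 in LT-HSC and 0 to 338 in MPP2, the highest without KO MPP2 replicate 2. KO LT-HSC minus KO MPP2 called 54 (without KO LT-HSC replicate 1) to 863 (without KO MPP2 replicate 2), and WT LT-HSC minus WT MPP2 called 41 (without WT LT-HSC replicate 3) to 267 (without WT MPP2 replicate 3). KO LT-HSC minus KO MPP3 called 161 (without KO MPP3 replicate 3) to 429 (without KO MPP2 replicate 3), and WT LT-HSC minus WT MPP3 called 443 (without WT LT-HSC replicate 4) to 844 (without KO MPP2 replicate 3). No paired analysis was possible because the labels carry no replicate numbers and name no animals; the library-number ranges entered as a covariate instead. Depth limits the members in progenitors, where 3 counts over a group correspond to means of 0.761 to 1.02.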
